A study of Mus musculus with 20 samples.

Results

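Brd2 and Brd3 are members of the BET family, whose proteins are the direct targets of the inhibitor used in this experiment. Both genes were picked by their symbols in the deposited expression table and followed by gene identifier in the count table, so 2 genes of the 42748 in the expression table and of the 50686 in the count table are described here. Other BET genes are not analysed here. Expression was measured by poly(A) RNA sequencing in RAW264.7, a mouse macrophage-like line of monocytic origin that forms osteoclasts when given the cytokine RANKL. The 10 groups held 2 libraries each, 20 in all. Cells had received RANKL (50 ng per ml) together with the BET inhibitor I-BET (500 nM), I-BET alone (500 nM) or RANKL alone (50 ng per ml), for 4, 14 or 24 h each, and the comparison group was untreated cells at 0 h. There were no untreated libraries at later hours. In every comparison that uses untreated cells, the treatment and the hours in culture therefore cannot be told apart. All groups are this one cell line, although the labels name bone marrow as the source, and separate cultures are not stated for the libraries of a group, so the p-values cover only the spread among these libraries, which may be technical.

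BET proteins carry a pair of bromodomains, pockets that hold acetylated lysines on histone tails, and an extraterminal domain that brings in further proteins. From acetylated chromatin they recruit transcription elongation machinery, including the kinase P-TEFb, to promoters and enhancers. I-BET compounds occupy the acetyl-lysine pocket and displace BET proteins from chromatin. Brd2 is a nuclear factor linked to E2F-driven transcription, and Brd3 is known for binding acetylated GATA1 in blood-forming cells.

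Brd2 (ENSMUSG00000024335) lies on the minus strand of chromosome 17, 34112023 to 34122634, and Brd3 (ENSMUSG00000026918) on the minus strand of chromosome 2, 27445579 to 27507662, in build GRCm38 (mm10). GENCODE M21 lists 19 transcripts of Brd2, of which 5 are protein coding, 7 are retained introns and 3 are targets of nonsense-mediated decay. It lists 10 transcripts of Brd3, 7 of them protein coding. Counts here are per gene, so shares of these transcripts were not measured. The 250 bases before RefSeq transcript starts (GRCm38.p6) are shown because both genes belong to one family and their messages took different courses under the inhibitor. Of 3 such Brd2 windows the outer 2 are printed. Each is written 5′ to 3′ on the minus strand, with matches to GGGCGG, the core of the GC box, in capitals.
Brd2, chr17:34122608-34122857: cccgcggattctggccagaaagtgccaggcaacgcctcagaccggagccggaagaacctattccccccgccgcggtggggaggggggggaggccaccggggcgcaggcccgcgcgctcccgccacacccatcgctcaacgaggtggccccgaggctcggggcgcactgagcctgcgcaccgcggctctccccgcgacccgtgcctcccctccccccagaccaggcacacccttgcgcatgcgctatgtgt
Brd2, chr17:34121748-34121997: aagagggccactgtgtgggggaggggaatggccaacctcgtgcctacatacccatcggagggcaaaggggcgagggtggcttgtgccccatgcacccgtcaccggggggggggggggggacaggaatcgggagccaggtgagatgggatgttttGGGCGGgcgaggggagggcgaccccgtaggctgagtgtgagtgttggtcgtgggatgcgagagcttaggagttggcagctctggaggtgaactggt
Brd3, chr2:27475399-27475648: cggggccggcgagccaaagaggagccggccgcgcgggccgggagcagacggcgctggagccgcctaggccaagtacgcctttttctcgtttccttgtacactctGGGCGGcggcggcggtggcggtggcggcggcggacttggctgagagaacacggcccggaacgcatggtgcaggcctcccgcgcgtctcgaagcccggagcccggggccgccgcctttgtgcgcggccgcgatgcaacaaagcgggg
The first Brd2 window was 73.6% G or C with 27 CpG, and the Brd3 window was 73.2% with 37 CpG, against a median of 52.4% over all 32851 promoters of the table. The second Brd2 window, before a start inside the gene, was 65.2% G or C, and the third, also inside the gene and not printed, was 56.4%. The Brd3 window lies before a start inside the gene too, at 27475398, while the gene on its minus strand begins at 27507662. Both strands of each window were searched for 6 motifs. The windows of Brd3 and of the inner Brd2 start held 1 GGGCGG each, a motif found in 32.7% of all promoters of this length, and the first Brd2 window held none of the 6. The others were the TATA box written TATAAA, in 12.4% of all promoters, the box CCAAT, in 33.8%, the E-box CACGTG, in 6.02%, the AP-1 motif TGACTCA, in 4.46%, and the ETS motif CCGGAAGT, in 2.88%. These matches overlap no other motif of the set and describe letters only.

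Total counts per library ran from 19051780 to 62313792. Brd2 received 6091 to 53886 counts per library and Brd3 2088 to 6788. In untreated library 2 5 genes, called rRNA-related here, took 10.1% of reads, while the other 19 libraries gave them 0.370 to 1.19%. These 5 genes were picked because their share in untreated library 2 most exceeded that in untreated library 1. The 8 macrophage markers all passed the filter on low counts, with a summed level of 3067 to 10171 CPM (counts scaled to a common library size), as did 7 of 8 osteoclast markers, summing to 9.22 to 646 CPM. Markers of other cell types were near 0, with 12 genes summing to 0.159 to 0.623 CPM, 1 of them past the filter, and the B cell gene Ms4a1 and the fibroblast gene Col1a2 at 0 in every library.

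In untreated cells both genes were well expressed, and Brd2 was the higher of the pair on a scale that corrects for length. Brd2 had 43.9 and 38.5 RPKM, reads scaled by gene length and library total, and Brd3 had 14.9 and 11.4 RPKM. Among the 10509 genes with a mean of at least 1 RPKM in untreated cells, Brd2 ranked 1250 from the top and Brd3 ranked 3940.

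**Figure D1:**
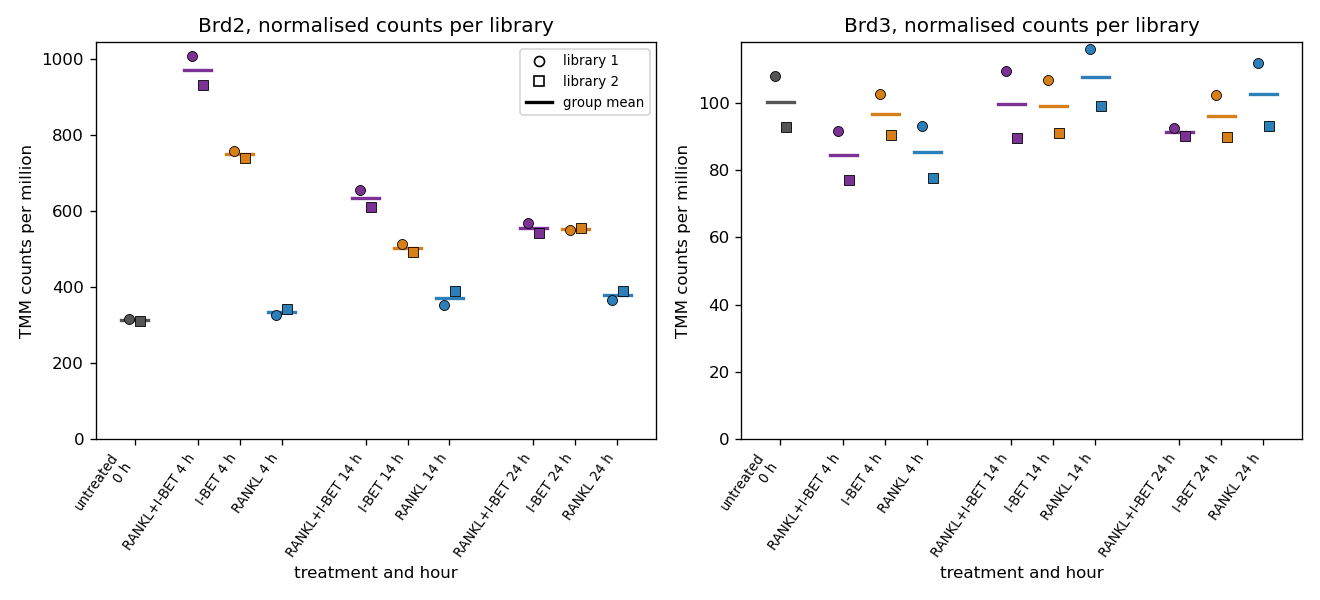
Normalised level (TMM CPM, linear axis from 0) of Brd2 and Brd3 in each library, by treatment and hour; circles are library 1, squares library 2, bars the group mean. Brd2 ran from 312 in an untreated library to 1009 in a library of RANKL with I-BET at 4 h, while Brd3 stayed between 77.2 and 116 in all 20 libraries.

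The central result is that Brd2 messenger RNA was higher wherever I-BET was present, with the widest gap at 4 h. Levels are given next as TMM CPM, which are CPM scaled by edgeR's trimmed mean of M values. At 4 h Brd2 had 1009 and 932 CPM in cells given RANKL with I-BET, against 328 and 343 CPM in cells given RANKL alone. At 14 h it had 655 and 611 CPM with RANKL and I-BET, against 354 and 389 CPM with RANKL. At 24 h it had 568 and 543 CPM with RANKL and I-BET, against 366 and 390 CPM with RANKL. At each hour both I-BET libraries lay above both RANKL libraries.

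By edgeR's quasi-likelihood test with Benjamini-Hochberg adjustment, where a gene is called at an adjusted p under 0.05, Brd2 was 2.89-fold higher in RANKL+I-BET than in RANKL cells at 4 h (log2 1.53, SE 0.08, adjusted p = 3.05e-07). Of the 16042 genes tested, 4.93% were called higher there. Brd2 ranked 2 by p-value and 147 by the size of the rise. At 14 h the difference was 1.71-fold (log2 0.77, SE 0.08, adjusted p = 1.29e-05, with 10.8% of genes called higher), and Brd2 ranked 237 by p-value. At 24 h it was 1.47-fold (log2 0.56, SE 0.08, adjusted p = 0.00014, with 13.9% of genes called higher), and the rank was 867. These are shares of each library's RNA, so in bulk samples fewer cells of a type and less RNA per cell cannot be told apart.

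The gap narrowed with time. Within RANKL+I-BET cells Brd2 was lower at 14 h than at 4 h by 0.62 on the log2 scale (-0.62, SE 0.08, edgeR adjusted p = 0.000321, where 9.4% of genes were called in either direction), a call lost when only the libraries of the comparison were fitted (adjusted p = 0.0952). Measured as a change of the I-BET difference in RANKL cells, the 14 h difference was smaller than that at 4 h by 0.76 on the log2 scale (log2 -0.76, SE 0.11, edgeR adjusted p = 0.00175), where 1.12% of genes were called lower. Fitted on only the libraries of that contrast, the adjusted p was 0.0775. The 24 h difference was smaller than the 4 h one by 0.98 (log2 -0.98, SE 0.11, edgeR adjusted p = 0.000133, with 2.71% of genes called lower). Between 14 and 24 h the change of -0.21 (SE 0.11) did not pass (edgeR adjusted p = 1.0, with 0.0187% of genes called lower).

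I-BET without RANKL gave the same direction. Brd2 had 759 and 739 CPM in cells given I-BET for 4 h, 512 and 493 CPM at 14 h and 549 and 554 CPM at 24 h, against 315 and 312 CPM in untreated cells. All 6 I-BET libraries exceeded both untreated libraries. The edgeR differences were 2.39-fold at 4 h (log2 1.26, SE 0.08, adjusted p = 3.76e-06), 1.60-fold at 14 h (log2 0.68, SE 0.08, adjusted p = 6.63e-05) and 1.76-fold at 24 h (log2 0.82, SE 0.08, adjusted p = 9.99e-06). The shares of all genes called higher were 4.03%, 5.29% and 7.5%, in the same order of hours. Within the I-BET arm Brd2 fell by 0.58 on the log2 scale at 14 h against 4 h (SE 0.08, edgeR adjusted p = 0.00097, with 2.71% of genes called lower), which was not called with only the libraries of the comparison (adjusted p = 0.123). The step of 0.14 at 24 h against 14 h did not pass (edgeR adjusted p = 0.869, 0.00623% called higher).

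RANKL alone moved Brd2 little, in comparisons that share the untreated libraries with those of I-BET alone. Its 4 h level of 328 and 343 CPM, against 315 and 312 CPM in untreated cells, gave a log2 difference of 0.10 that did not pass (SE 0.08, edgeR adjusted p = 0.713, with 2.08% of genes called higher). With the library number as a replicate block, the 14 and 24 h differences given next were also called (edgeR adjusted p = 0.00856 and 0.00417). At 14 h Brd2 was 1.18-fold higher with RANKL than in untreated cells (log2 0.24, SE 0.08, edgeR adjusted p = 0.0479, with 8.31% of genes called higher), and at 24 h 1.21-fold (log2 0.27, SE 0.08, edgeR adjusted p = 0.0291, with 8.04% called higher). Both calls were lost when any 1 of the 4 libraries involved was left out: dropping RANKL library 1 or 2 gave an adjusted p of 0.0756 or 0.349 at 14 h and 0.0583 or 0.177 at 24 h, and dropping untreated library 1 or 2 gave 0.167 or 0.237 at 14 h and 0.128 or 0.192 at 24 h.

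Whether Brd2 was called higher with RANKL and I-BET than with I-BET alone differed between tests. At 4 h Brd2 had 1009 and 932 CPM in RANKL+I-BET cells, against 759 and 739 CPM in I-BET cells, a log2 difference of 0.37 (SE 0.08). At 14 h it had 655 and 611 CPM in RANKL+I-BET cells, against 512 and 493 CPM in I-BET cells, a log2 difference of 0.33 (SE 0.08). Neither pair of groups overlapped, but the edgeR adjusted p was 0.0629 at 4 h and 0.0801 at 14 h, in comparisons where 0.48% and 0.549% of genes were called higher. With the library number as a replicate block both were called (edgeR adjusted p = 0.00279 and 0.00481), and DESeq2 called both (adjusted p = 0.000335 and 0.0010). At 24 h the groups overlapped, with 568 and 543 CPM in RANKL+I-BET cells and 549 and 554 CPM in I-BET cells (log2 0.01, 95% interval -0.16 to 0.18, edgeR adjusted p = 1.0, 0.106% called higher). As a test of the interaction, the I-BET difference with RANKL minus that without RANKL was taken at each hour. The difference without RANKL had untreated cells at 0 h as its reference throughout, so interaction and hours in culture cannot be told apart in it. The values were 0.28, 0.09 and -0.26 on the log2 scale at 4, 14 and 24 h. None of the 3 passed (edgeR adjusted p = 0.992, 0.913 and 0.245), in tests where 0.0%, 2.78% and 5.25% of genes were called in either direction.

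Ordered from low to high, the Brd2 group means ran from untreated (313 CPM) through RANKL at 4 h (335), 14 h (371) and 24 h (378), I-BET at 14 h (502) and 24 h (552), RANKL+I-BET at 24 h (556) and 14 h (633), and I-BET at 4 h (749) to RANKL+I-BET at 4 h (971). The highest mean was 3.10 times the lowest. Among the 9 neighbouring pairs in that order, 2 overlapped, RANKL at 14 and 24 h and I-BET with RANKL+I-BET at 24 h. Every group without I-BET lay below every group with it. Against untreated cells, Brd2 in RANKL+I-BET cells was 3.10-fold higher at 4 h (log2 1.63, SE 0.08, edgeR adjusted p = 2.84e-07), the smallest p-value of all 16042 genes in that comparison, where 5.55% were called higher.

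Brd3 was not called in any of these comparisons in the fit without the replicate block, and where the block changes that, its value is given. It had 91.6 and 77.2 CPM in RANKL+I-BET cells at 4 h, against 93.3 and 77.7 CPM in RANKL cells. At 14 h it had 110 and 89.6 CPM in RANKL+I-BET cells, against 116 and 99.1 CPM in RANKL cells. At 24 h it had 92.5 and 90.1 CPM in RANKL+I-BET cells, against 112 and 93.2 CPM in RANKL cells. The groups overlapped at 4 and 14 h, and at 24 h the I-BET libraries lay just below both RANKL libraries. The log2 differences were -0.02, -0.11 and -0.17 (SE 0.15 each, edgeR adjusted p = 0.980, 0.670 and 0.457), in comparisons where 11.4%, 22.1% and 26.8% of genes were called in either direction. Their 95% intervals ran from -0.34 to 0.31, from -0.44 to 0.21 and from -0.49 to 0.16, which do not reach the Brd2 value at the same hour. With the replicate block, the 24 h difference was called as a fall of small size (log2 -0.16, SE 0.06, edgeR adjusted p = 0.0468). In that fit 7475 of 16042 genes were called in either direction at 24 h.

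**Figure D2:**
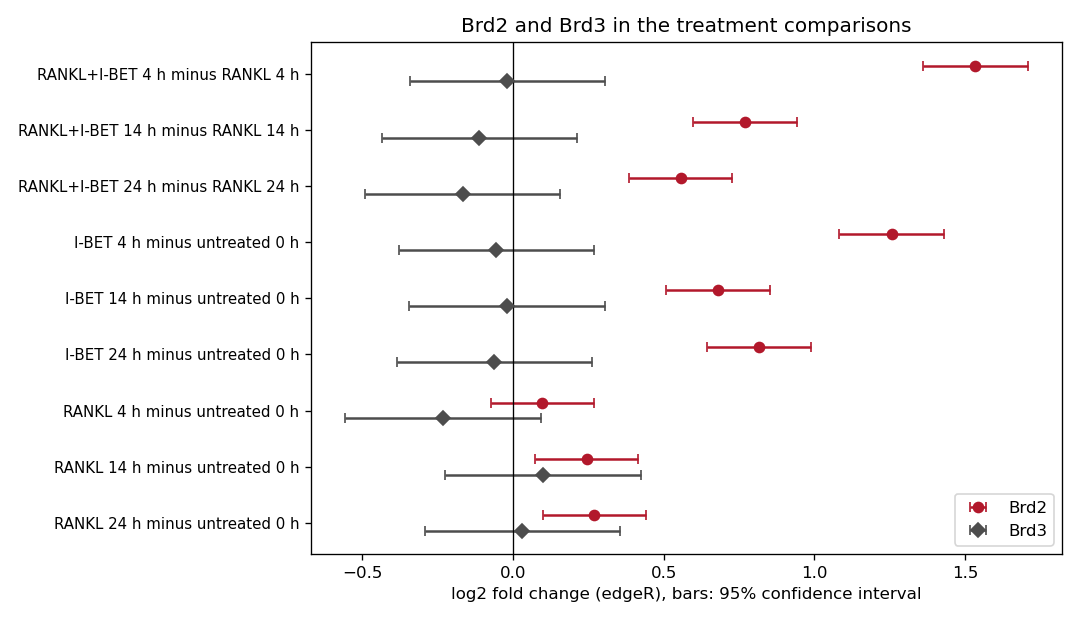
Log2 fold changes (edgeR) of Brd2 and Brd3 in the 9 treatment comparisons; bars are 95% confidence intervals and the line marks no change. Brd2 lies right of 0 in all 6 comparisons with I-BET, from 0.56 to 1.53, while all 9 Brd3 intervals include 0. The fit shown is that without the replicate block.

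With I-BET alone Brd3 had 103 and 90.5 CPM at 4 h, 107 and 91.1 CPM at 14 h and 102 and 89.9 CPM at 24 h, against 108 and 92.8 CPM in untreated cells. The groups overlapped at every hour, and the log2 differences were -0.05, -0.02 and -0.06 (SE 0.15 each, edgeR adjusted p = 0.889, 0.974 and 0.844), where 10.5%, 13.7% and 17.7% of genes were called in either direction. With RANKL alone against untreated cells they were -0.23, 0.10 and 0.03 at 4, 14 and 24 h (SE 0.15 each, edgeR adjusted p = 0.576, 0.744 and 0.926), where 3.91%, 18.4% and 18.9% of genes were called. The replicate block called the RANKL difference at 4 h (log2 -0.23, SE 0.06, edgeR adjusted p = 0.0168), the step at 14 h against 4 h in RANKL cells (0.33, adjusted p = 0.000301, against 0.157 without the block) and the same step in RANKL+I-BET cells (0.24, adjusted p = 0.00912, against 0.412 without it). It also called Brd3 lower in RANKL+I-BET cells at 4 h than in untreated cells (log2 -0.25, adjusted p = 0.00524, against 0.352 without it). Without the block 17.7% and 9.4% of genes were called in the steps at 14 h against 4 h, and shares with the block are not given here for them. In RANKL against untreated cells at 4 h, the block called 2325 of 16042 genes, where 3.91% were called without it.

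Brd3 differed between the library numbers in the same direction throughout. Library 1 lay above library 2 in 10 of 10 groups, by 1.03 to 1.22 times (median 1.17). The highest group mean (108 CPM, RANKL at 14 h) was 1.28 times the lowest (84.4 CPM, RANKL+I-BET at 4 h). All 9 neighbouring pairs of groups in the Brd3 order overlapped. For Brd2, library 1 was the higher in 6 of 10 groups, at 0.911 to 1.08 times library 2. The labels do not say what the library numbers stand for.

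The ratio of Brd2 to Brd3 within a library compares the family members directly, since it does not depend on library size. On RPKM it was 11.1 and 12.2 in RANKL+I-BET libraries at 4 h, 6.02 and 6.87 at 14 h and 6.19 and 6.07 at 24 h, against 3.54 and 4.45, 3.07 and 3.95, and 3.29 and 4.21 in RANKL libraries at the same hours. With I-BET alone it was 7.44 and 8.22 at 4 h, 4.83 and 5.44 at 14 h and 5.40 and 6.21 at 24 h, against 2.94 and 3.38 in untreated libraries. No RANKL or untreated library reached the lowest library given I-BET. Averaged over the 3 hours, the log2 ratio was higher by 1.05 in RANKL+I-BET than in RANKL libraries, a 2.07-fold difference (1.55, 0.88 and 0.72 at 4, 14 and 24 h; exact permutation test within hours, two-sided, p = 0.00926, the smallest that these exchanges can give, and 0.0185 adjusted over 2 ratio tests). Exchanging labels only within library numbers, the exact p was 0.0313, the smallest for 64 arrangements. Against I-BET libraries, the RANKL+I-BET ratio was higher by 0.33 on the log2 scale, 1.25-fold (0.57, 0.33 and 0.08 at 4, 14 and 24 h; exact permutation p = 0.0278, adjusted p = 0.0278). Within library numbers that exact p was 0.0625, and leaving out RANKL+I-BET or I-BET libraries 1 at a time gave up to 0.0556.

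**Figure D3:**
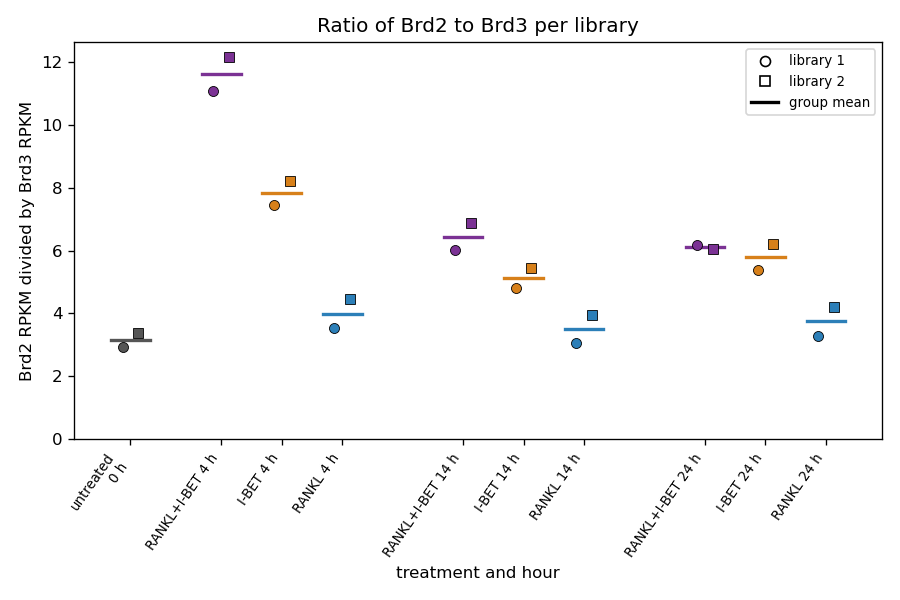
Brd2 RPKM divided by Brd3 RPKM in each library (linear axis from 0), by treatment and hour; circles are library 1, squares library 2, bars the group mean. The ratio was 6.02 to 12.2 in RANKL+I-BET libraries and 3.07 to 4.45 in RANKL libraries.

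The other bromodomain genes, which read acetylated lysines but lie outside the BET family, were called in both directions. Of 36 such genes 34 were tested. In RANKL+I-BET against RANKL cells 0 were called higher and 1 lower at 4 h, 3 higher and 2 lower at 14 h, and 5 higher and 3 lower at 24 h. Over all genes tested 4.93%, 10.8% and 13.9% were called higher and 6.46%, 11.2% and 12.9% lower. The median log2 change of the bromodomain list was 0.02, 0.02 and 0.03 at these hours, against 0.001, -0.03 and -0.05 over all genes tested. Brd2 lay above all 34 at 4 h, 2 exceeded it at 14 h and 5 at 24 h. The counts with the replicate block were 6 higher and 4 lower, 9 higher and 8 lower, and 9 higher and 5 lower. Without single libraries they were 0 to 1, 1 to 2 and 3 to 5 higher, and 0 to 1, 1 to 2 and 1 to 2 lower. The replicate block also raised the calls over all genes at 24 h, to 7475 of 16042 in either direction, against 4299 without it. Shares of all genes, here and for the later lists, are those of the fit without the block. In I-BET against untreated cells 1 was called higher and 3 lower at 4 h, 3 higher and 1 lower at 14 h, and 2 higher and 2 lower at 24 h, where 4.03%, 5.29% and 7.5% of all genes were called higher and 6.48%, 8.37% and 10.2% lower. These counts were 7 and 9, 6 and 4, and 6 and 5 with the replicate block. Without single libraries they were 0, 0 to 2 and 0 to 2 higher, and 0 to 2, 1 and 1 lower.

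Smarca2, the ATPase of a chromatin-remodelling complex, had 6.75 and 5.93 RPKM in RANKL+I-BET cells at 24 h, against 2.83 and 2.57 RPKM in RANKL cells. Its log2 change was -0.02 at 4 h, 1.16 at 14 h and 1.20 at 24 h (edgeR adjusted p = 5.56e-05 at 14 h and 3.06e-05 at 24 h, not called at 4 h). In RANKL against untreated cells, with the same RANKL libraries, Smarca2 was lower at 14 and 24 h (log2 -0.76 and -0.77, edgeR adjusted p = 0.00203 and 0.00163). In I-BET against untreated cells it was higher at these hours (0.67 and 0.59, edgeR adjusted p = 0.00543 and 0.00972). Sp100, a component of nuclear bodies, had 0.808 and 0.659 RPKM in RANKL+I-BET cells at 14 h, against 2.03 and 1.87 RPKM in RANKL cells (log2 -1.46, SE 0.16, edgeR adjusted p = 2.16e-05). Its relatives Sp110 and Sp140 went the other way at 24 h, higher in RANKL+I-BET cells by 1.0 (SE 0.20, edgeR adjusted p = 0.0022) and 0.90 (SE 0.19, adjusted p = 0.00284). In RANKL against untreated cells at 24 h, a comparison with the same RANKL libraries, both were lower, with log2 changes of -2.06 for Sp110 and -0.99 for Sp140 (edgeR adjusted p = 8.68e-06 and 0.00257), and with only the libraries of the comparison Sp140 was not called (0.0603). In I-BET against untreated cells Sp110 was lower at 4 and 24 h (log2 -0.70 and -0.66, edgeR adjusted p = 0.0392 and 0.0326). Sp100 was lower there too (log2 -0.80 and -1.78, edgeR adjusted p = 0.00487 and 4.15e-06). At 4 h in RANKL+I-BET against RANKL cells, where Brd2 had its largest difference, Sp110 was at -0.33 and Sp140 at -0.10, and neither was called (adjusted p = 0.368 and 0.860). Sp100 was called lower at 4 h (-0.62, adjusted p = 0.0179), and that call was lost without RANKL library 2 (0.179), RANKL+I-BET library 1 (0.0724) or RANKL+I-BET library 2 (0.124).

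**Figure D4:**
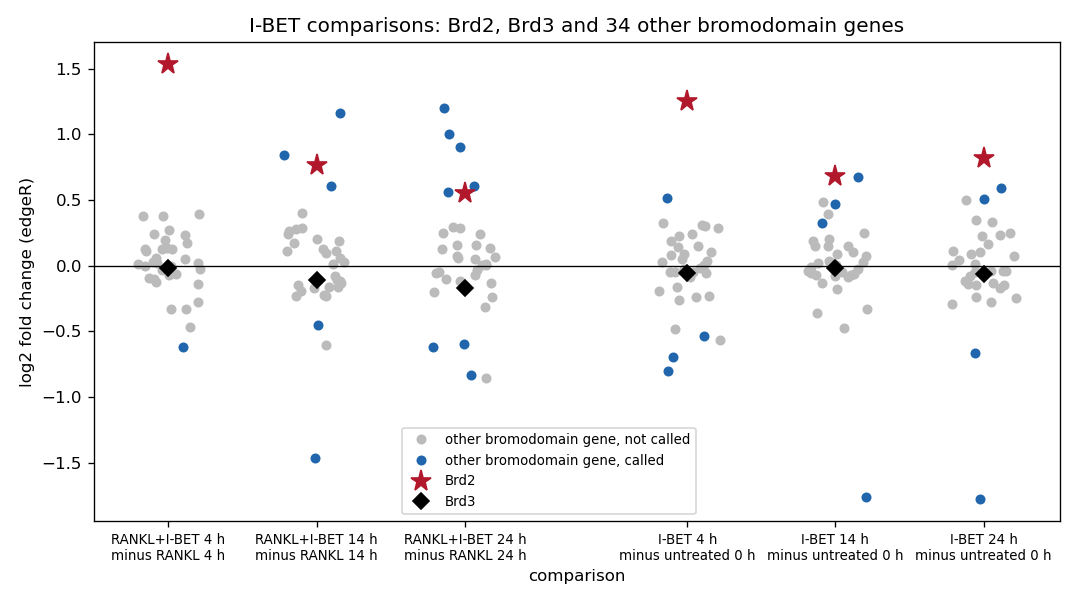
Log2 fold changes (edgeR) in the 6 comparisons with I-BET for Brd2 (star), Brd3 (diamond) and the 34 other bromodomain genes tested (circles, blue where called at an adjusted p under 0.05). Brd2 lies above all 34 in 4 of the 6 comparisons, and Brd3 lies within their range in each.

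Among the 9 genes of P-TEFb and of the 7SK particle that holds it inactive, 1 was called higher and 0 lower in RANKL+I-BET against RANKL cells at each hour. That gene was Hexim1, the inhibitor of P-TEFb in the 7SK particle, a gene widely used as a readout of BET inhibition. Over all genes tested 4.93%, 10.8% and 13.9% were called higher and 6.46%, 11.2% and 12.9% lower at 4, 14 and 24 h. With the replicate block 4, 3 and 4 genes of the list were called higher and 1, 0 and 1 lower. That block called 7475 of all 16042 genes in either direction at 24 h. Hexim1 had 42.1 and 51.7 RPKM in RANKL+I-BET cells at 4 h, against 19.2 and 21.8 RPKM in RANKL cells. Its log2 changes were 1.18, 0.88 and 1.16 (SE 0.20 each, edgeR adjusted p = 0.00203, 0.0059 and 0.000679), so unlike Brd2 its values at 4 and 24 h lay close together. At 14 h the call was lost without RANKL library 1 (adjusted p = 0.0652) or RANKL+I-BET library 2 (0.0855). In I-BET against untreated cells Hexim1 was higher by 1.22, 0.70 and 0.96 (edgeR adjusted p = 0.00207, 0.0326 and 0.00426). Without single libraries the 14 h call was lost in 3 of 4 cases (untreated library 1, 0.249, untreated library 2, 0.0633, and I-BET library 2, 0.247), and the 24 h call without untreated library 1 (0.0598) or I-BET library 2 (0.0510). Its paralog Hexim2 was called lower at each hour (log2 -1.07, -1.17 and -1.0, edgeR adjusted p = 0.043, 0.0216 and 0.0378). With any 1 of the 4 libraries left out, 0 genes of the list were called lower at 4 and 24 h and 0 to 1 at 14 h. Myc, a gene known to depend on BET proteins, was lower in RANKL+I-BET than in RANKL cells, with log2 changes of -5.0, -7.52 and -8.49 at 4, 14 and 24 h (edgeR, SE 0.36, 0.43 and 0.46, adjusted p = 3.70e-06, 1.55e-07 and 4.98e-08).

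The other groups of genes tied to BET function are small, and their counts are set against the shares of all genes given above, which in RANKL+I-BET against RANKL cells were 11.4%, 22.1% and 26.8% in either direction at 4, 14 and 24 h. Of 6 partners of the extraterminal domain, 1 was called higher and 0 lower in RANKL+I-BET against RANKL cells at 4 h, and 0 in either direction at 14 and 24 h (1, 0 and 0 higher and 3, 1 and 2 lower with the replicate block). It was Chd4, a remodelling ATPase (log2 0.40, SE 0.09, edgeR adjusted p = 0.0128), and its call was lost without RANKL library 2 (0.15) or RANKL+I-BET library 1 (0.0931). Of 9 acetyltransferases without a bromodomain, none was called at 4 or 14 h and 1 at 24 h, the coactivator Ncoa3 (log2 0.45, SE 0.12, adjusted p = 0.0119), which was lost without RANKL library 1 (0.0813) or RANKL+I-BET library 2 (0.058). With the replicate block 4, 3 and 4 of these acetyltransferases were called higher and 2, 0 and 1 lower at 4, 14 and 24 h. In RANKL against untreated cells, with the same RANKL libraries, Ncoa3 was lower at 24 h (log2 -0.83, edgeR adjusted p = 0.000193). In I-BET against untreated cells 0 acetyltransferases were called higher at each hour, and 1, 0 and 0 lower. Of the partners 0, 0 and 1 were called higher there and 0 lower. Over all genes 4.03%, 5.29% and 7.5% were called higher there and 6.48%, 8.37% and 10.2% lower.

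Of 11 histone deacetylases, the enzymes that remove the acetyl groups BET proteins bind, 0 were called higher and 1 lower at 4 h, 1 higher and 1 lower at 14 h, and 3 higher and 1 lower at 24 h in RANKL+I-BET against RANKL cells (3 and 2, 3 and 1, and 6 and 2 with the replicate block). Hdac9, a class IIa deacetylase, changed sign with time. Its log2 change was -1.50 at 4 h, -0.01 at 14 h and 1.69 at 24 h (SE 0.21 each, edgeR adjusted p = 0.000439, 0.976 and 5.09e-05). Hdac9 was lower in RANKL than in untreated cells at 24 h (log2 -2.77, SE 0.22, edgeR adjusted p = 1.15e-06). Hdac4, also of class IIa, was higher at 24 h (log2 0.67, SE 0.19, adjusted p = 0.0165), a call lost without RANKL library 2 (0.0926) or RANKL+I-BET library 1 (0.0895). The other calls at 14 and 24 h were the cytoplasmic deacetylase Hdac6 (0.38 and 0.37, adjusted p = 0.0151 and 0.0147) and the class I enzyme Hdac2 (-0.26 and -0.34, adjusted p = 0.0423 and 0.0079), each of which was lost without at least 1 of the 4 libraries. In RANKL against untreated cells at 24 h, with the same RANKL libraries, Hdac4 was lower and Hdac2 higher (log2 -1.04 and 0.32, edgeR adjusted p = 0.0015 and 0.0148). In I-BET against untreated cells 0 deacetylases were called higher at each hour, and 1, 0 and 0 lower, where 6.48%, 8.37% and 10.2% of all genes were called lower. Of 4 genes of the ubiquitin ligase that marks BET proteins for degradation in human cells, 0 were called higher and 1, 1 and 2 lower at 4, 14 and 24 h (0, 0 and 1 higher and 1, 3 and 3 lower with the replicate block). Over all genes 6.46%, 11.2% and 12.9% were called lower. In I-BET against untreated cells 0 genes of this list were called higher at each hour, and 2, 0 and 0 lower. In RANKL against untreated cells, with the same RANKL libraries, the substrate adaptor Spop was higher at 14 and 24 h (log2 0.37 and 0.26, edgeR adjusted p = 0.00732 and 0.0485). In RANKL+I-BET against RANKL cells Spop was at -0.30 at 14 h and -0.36 at 24 h (SE 0.09 each, edgeR adjusted p = 0.0213 and 0.00623) and its paralog Spopl at -0.46 at 4 h (SE 0.10, adjusted p = 0.00967). Leaving out single libraries ended each of these 3 calls, Spop at 14 h without RANKL library 1 or 2 or RANKL+I-BET library 1, Spop at 24 h without RANKL library 2 or RANKL+I-BET library 1, and Spopl at 4 h without RANKL library 1 or 2 or RANKL+I-BET library 2, with adjusted p up to 0.185.

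The genes beside Brd2 on chromosome 17 were few. Of 9 genes within 50 kb 4 were tested, and 0, 1 and 2 were called higher and none lower in RANKL+I-BET against RANKL cells at 4, 14 and 24 h, where 4.93%, 10.8% and 13.9% of all genes were called higher. In I-BET against untreated cells 0 were called higher at each hour, and 0, 1 and 1 lower (6.48%, 8.37% and 10.2% of all genes lower). In RANKL against untreated cells, with the same RANKL libraries, 0 were called higher and 0, 2 and 2 lower. Over all genes 3.91%, 18.4% and 18.9% were called there in either direction. The next values are for RANKL+I-BET against RANKL cells. H2-DMa, a chaperone of antigen loading, was higher at 14 h (log2 1.22, SE 0.19, edgeR adjusted p = 0.000481) and 24 h (1.34, SE 0.20, adjusted p = 0.000179) but not called at 4 h (0.32, SE 0.19, adjusted p = 0.363). Col11a2, a collagen gene, was higher at 24 h (log2 1.24, SE 0.35, adjusted p = 0.017), which was lost without any 1 of the 4 libraries (0.0615 to 0.0787). Near Brd3, 6 genes lay within 50 kb by the coordinates deposited with the expression values, as used for Brd2, and 3 were tested. Of these Vav2, a guanine nucleotide exchange factor, was called higher at 24 h (log2 0.50, SE 0.10, edgeR adjusted p = 0.00268). Those 6 genes do not include Brd3os, which was tested as well. Brd3os, on the opposite strand 1357 bases beyond Brd3 without overlapping it, had 31 to 163 counts per library and was not called in any of the 9 treatment comparisons. Without RANKL library 1 it was called lower in RANKL+I-BET than in RANKL cells at 24 h (log2 -0.96, edgeR adjusted p = 0.0128). With the replicate block it was called in I-BET against untreated cells at 14 h (log2 -0.75, edgeR adjusted p = 0.0243) and in RANKL against untreated cells at 4 h (0.72, adjusted p = 0.0344).

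The genes whose group means ran most like those of Brd2, by Pearson correlation of log2 CPM over the 10 groups among 9450 genes with a mean of at least 5 CPM, were Rnf19a (0.983), Cited2 (0.977), Sprtn (0.977), Kctd10 (0.967) and Fbxo9 (0.961). These are descriptions over 10 points that share libraries. Likeness in course is not likeness in size. Group means of log2 CPM ran from 4.47 to 4.87 for Rnf19a, 4.59 to 4.93 for Sprtn, 4.52 to 5.08 for Kctd10 and 4.84 to 5.21 for Fbxo9. The highest Brd2 mean was 3.10 times the lowest on the CPM scale. Over the 20 single libraries these 4 genes correlated with Brd2 at 0.851, 0.810, 0.801 and 0.819, and ranked 48, 105, 132 and 91. Cited2, a transcriptional coregulator that binds the acetyltransferases CBP and p300, had 518 and 474 RPKM in RANKL+I-BET cells at 4 h, against 210 and 190 RPKM in RANKL cells. It was also the gene most like Brd2 over the 20 single libraries (0.971). The genes most like Brd3 were Baz1b (0.917), Bard1 (0.915), Xrcc1 (0.909), Mdc1 (0.902) and Ezh2 (0.896), and Baz1b is itself a bromodomain gene. Over the 20 single libraries Xrcc1 correlated at 0.171 with Brd3 and ranked 2836, and Ezh2 ranked 388. Of the 5 genes named for each member, 1 for Brd2 and 2 for Brd3 were among the top 5 over single libraries. Brd2 and Brd3 ran against each other weakly (Pearson -0.41, Spearman -0.47 over the 10 group means).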

How the data were processed

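Counts per gene and RPKM values were deposited by the authors for 20 libraries. Per the labels' protocols, poly(A) libraries (NEBNext Ultra) were sequenced as paired ends, and per the submitters' processing notes FastQC, STAR 2.5.3a, DESeq2 1.16.1 and GRCm38 (mm10) were used. Which counting tool was used, and whether by strand, is not given in the sources used here. The deposited RPKM equalled count over length and total count. Brd2 and Brd3 were chosen by symbol, and the members and gene lists were chosen with earlier results of these data known. Named genes were the members, Brd3os, Hexim1, Myc, called genes within 50 kb, the 5 most alike to each member, and up to 4 called genes per list by size. Counts were tested with edgeR 4.0.16 (R 4.3.3; TMM, filterByExpr, robust quasi-likelihood, a mean per group, 16042 genes, Benjamini-Hochberg adjustment). Ratios used exact permutation. Alternatives were a replicate block, RLE scaling, other filters, limma 3.58.1 on log2(RPKM + 1) or log2(RPKM + 0.1), DESeq2 1.42.0 and leaving out each library. Libraries with the same number deviated together in all 45 pairs of groups (correlations 0.221 to 0.596). That pairing was used only in the replicate block and in the permutations within library numbers. The reported edgeR fit left it out. Scripts were tested on simulated data.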

Additional observations from a re-analysis of the deposited data

Results flagged for a closer look

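The Brd2 difference between RANKL+I-BET and RANKL cells changed with time by a direct test. On the log2 scale it was smaller by 0.76 at 14 h than at 4 h (-0.76, edgeR adjusted p = 0.00175) and by 0.98 at 24 h than at 4 h (-0.98, edgeR adjusted p = 0.000133).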

How the results depend on the processing

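The 6 Brd2 differences with I-BET kept their direction and call under 15 alternatives each. In RANKL+I-BET against RANKL cells they ran from 1.48 to 1.59 at 4 h, 0.72 to 0.86 at 14 h and 0.53 to 0.62 at 24 h, and the largest adjusted p of all 6 was 0.0240. Brd2 in RANKL against untreated cells at 14 h was no longer called with the replicate block without untreated library 2 (0.23), with RLE scaling (0.23), without a filter (0.26), with a filter of 1 CPM in 4 libraries (0.21), without 5 rRNA-related genes (0.23), with only the 4 libraries compared (0.21), with limma at pseudocount 1 (0.24) or 0.1 (0.24), or without single libraries (0.17 to 0.30). At 24 h it was lost with the replicate block without untreated library 2 (0.25), without a filter (0.24), with only the 4 libraries (0.23) and without single libraries (0.22 to 0.31). The replicate block with all libraries kept both calls (0.24 at 14 h and 0.27 at 24 h). With the replicate block Brd3 was called lower at 24 h in RANKL+I-BET against RANKL cells (-0.16, adjusted p = 0.0468) and at 4 h in RANKL against untreated cells (-0.23, adjusted p = 0.0168), and the ratio of RANKL+I-BET over I-BET libraries missed the threshold (0.33, exact p = 0.0625); without single libraries that ratio ran from 0.29 to 0.36. The cause was not tested. Changes of sign were checked for the members, the ratios, Brd3os, Hexim1, Myc, the called genes within 50 kb and the list genes named by size. Among these no value called in the reported fit changed sign under any alternative run. Hexim2 and the genes named for their likeness to a member were not part of that check. Values that were not called did change sign: without single libraries, Brd3 in RANKL+I-BET against RANKL cells ran from -0.15 to 0.12 at 4 h and from -0.26 to 0.04 at 14 h. For Brd3 in RANKL+I-BET against RANKL cells at 4 h, the 95% interval ran from -0.34 to 0.31 (log2) without the replicate block. With 2 libraries per group, this bounds what could be detected in that fit only. With the block the SE of the same difference was 0.06, against 0.15 without it.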
